A study of Mus musculus with 4 samples.

Results

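The genes described here encode factors of the small subunit processome and of 40S maturation. They were named in a list of 41 genes and found on the array through the RefSeq accession of each probe. Of the 41 genes, 38 had a probe found in this way (Wdr43, Utp20 and Ddx10 had none), and 37 entered the test, among 19338 genes tested in all. The remaining gene, Imp4, was not well above background on any of the 4 arrays and was not tested. All 37 tested genes were well above background on all 4 arrays, so none entered through 1 group only.

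RNA came from mouse embryonic stem cells in which FBL, fibrillarin, depends on tetracycline (Tc). The 2 FBL knock-down samples were grown for 2 days without Tc, and the 2 control samples for 2 days with 1000 ng/mL Tc. Both groups carried the Tc-inducible system and were grown on gelatin with leukaemia inhibitory factor (LIF). Neither the construct nor the number of clones is described in the labels. They also do not say whether replicates were separate cultures, so the p-values rest on a spread that may be purely technical. Tc was present in the control group alone, and its own effect and that of less FBL cannot be told apart. Each sample was read on 1 single-colour Agilent array.

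In the nucleolus, the small subunit processome assembles on the nascent ribosomal RNA precursor. There the U3 small nucleolar RNA pairs with the precursor while the processome folds it and directs its early cleavages. Particles that leave it are matured by GTPases, helicases, RIO kinases and an endonuclease into the 40S subunit. Fibrillarin is a core protein of the U3 particle and a ribose methyltransferase of other box C/D particles, so the knocked-down protein is itself part of the machine. The comparison asks which of the messenger RNAs for the other parts differed after knock-down.

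Levels are given as log2 of the processed signal over each array's own 75th percentile. Changes are the knock-down mean minus the control mean, with limma's standard error (SE) and n = 2 per group throughout. A gene rose or fell where its Benjamini-Hochberg adjusted p over all genes tested was at most 0.05. Fbl had levels of 5.98 and 5.94 in the knock-down samples, against 8.63 and 8.12 in the controls. In such bulk RNA, fewer cells with a transcript and less of it per cell cannot be told apart. Both knock-down values lay far below both controls, and Fbl fell by 2.42 ± 0.25 on the log2 scale, or 5.33-fold (limma adjusted p = 4.18e-04). Over all genes tested, 6.51% rose or fell in limma and 20.0% stood at an unadjusted p under 0.05, which is the frame for the marker counts that follow. All 8 embryonic stem cell markers were well above background on every array, and none of them rose or fell in limma, with 2 at an unadjusted p under 0.05. Both were lower, Nanog by −0.83 (limma adjusted p = 0.060) and Zfp42 by −0.61 (limma adjusted p = 0.182). Of 4 tested fibroblast markers none passed in limma, with 1 at an unadjusted p under 0.05, while Col3a1 and Dcn were not well above background on any array. Of 7 tested primitive endoderm markers 2 fell, Sox7 and Lama1, and 4 stood at an unadjusted p under 0.05. Gata4 and Sox17, the rest of those 4, had changes of opposite sign, −1.86 and 0.79. Neither passed (limma adjusted p = 0.153 and 0.115). Of 8 trophectoderm markers 1 rose, Krt7, and 1 fell, Elf5, and 5 stood at an unadjusted p under 0.05. Cdx2, Gata3 and Hand1, the other 3 of those 5, had changes of 0.83, 0.76 and 0.70, which did not pass (limma adjusted p = 0.071 to 0.103). Elf5, Gata4 and Sox17 were well above background on at most 3 of the 4 arrays, so each entered the test through 1 group only. Elf5 had levels of −6.01 and −7.21 in the knock-down samples and −5.10 and −4.86 in the controls. Its fall therefore rests partly on a value that was not well above background. The groups overlapped in Gata4. The summed linear level of the endoderm markers was 1.4 and 1.36 times the 75th percentile in the knock-down samples and 2.79 and 2.46 times in the controls. For the trophectoderm markers it was 9.40 and 9.92 in the knock-down samples and 12.2 and 8.96 in the controls. Most of the trophectoderm sum came from Krt18 and Krt8 and most of the endoderm sum from Lama1. The sums therefore say little about the dimmer markers, Krt7, Cdx2, Gata3 and Hand1 among them. The part of all these markers in the results below was not tested.

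None of the 37 genes rose or fell in limma, where 6.51% of all genes tested did (3.89% rose and 2.62% fell). Their changes were small and mostly negative. The lowest was that of Bms1, at 1.55-fold lower in knock-down cells, and the highest that of Pwp2, at 1.33-fold higher. Of the 37 genes, 30 (81.1%) had a change below 0, against 56.1% of all genes. Their median change was −0.29 on the log2 scale, against −0.06 over all genes tested. The 25th and 75th percentiles of the changes were −0.45 and −0.03 for the members and −0.30 and 0.21 over all genes tested. At an unadjusted p under 0.05 stood Dimt1, Bms1 and Pno1, which are 3 genes or 8.11% of the 37, all lower, where 20.0% of all genes tested did (10.6% lower and 9.48% higher). With the variance prior fitted as a trend on level, 10 of the 37 did so, where 21.8% of all genes did, and 0 passed the adjusted threshold, where 9.70% of all genes did.

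Both knock-down values lay below both controls for 20 of the 37 genes (54.1%), against 30.6% of all genes tested. For 2 of them, Utp14a and Pwp2, both lay above, against 20.6% of all genes. The groups overlapped for the other 15. Adjusted p in limma ran from 0.186 to 0.999, and the SE from 0.23 to 0.29. In 29 of the 37 genes the 95% interval of the change, taken for each gene alone, held neither a 2-fold fall nor a 2-fold rise. In the other 8 it reached a 2-fold fall, and in none of the 37 a 2-fold rise.

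**Figure D1:**
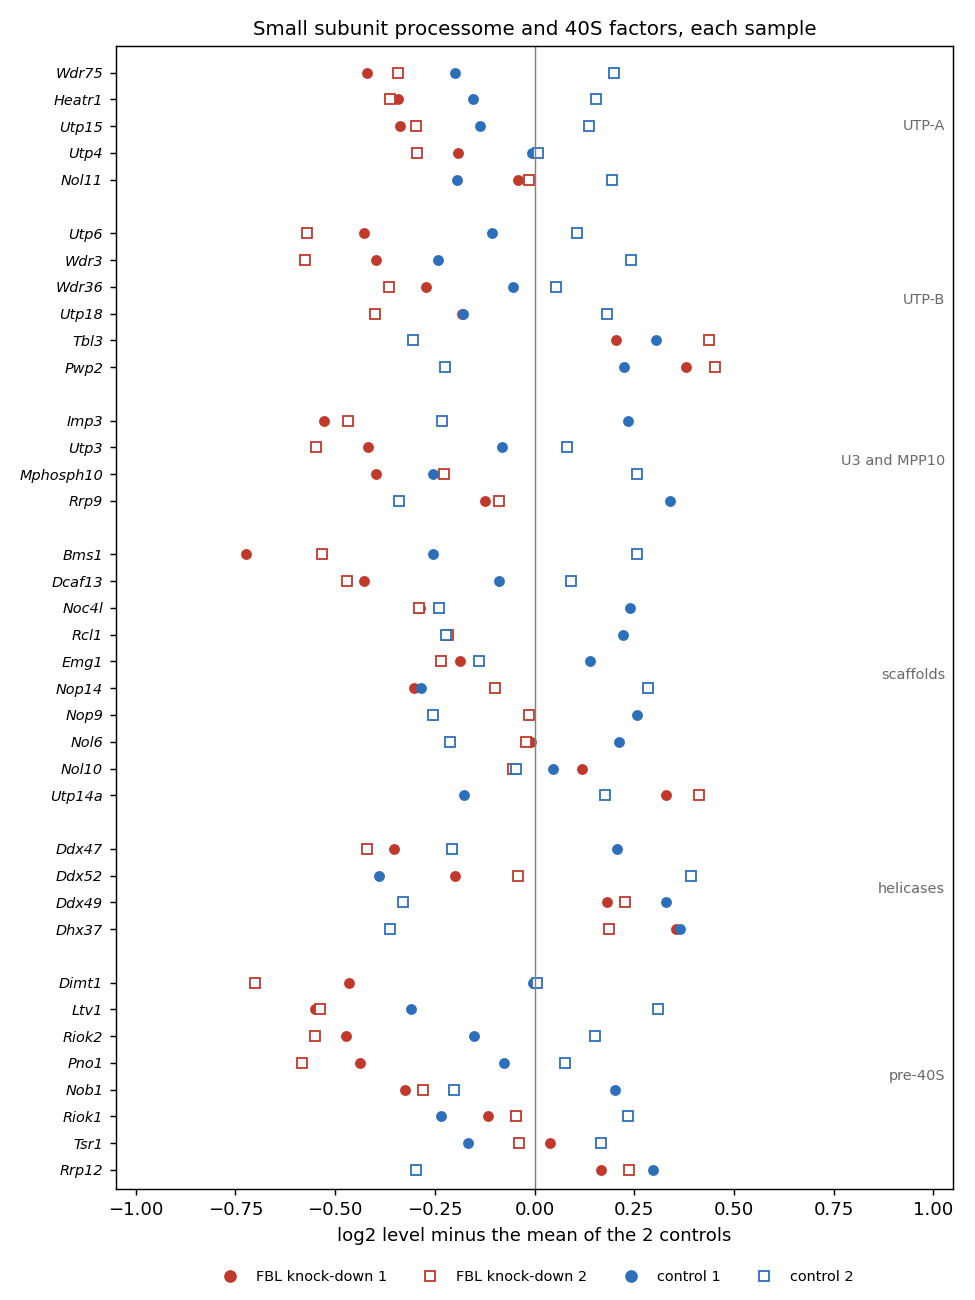
Log2 level of each of the 37 tested genes in each sample, minus the mean of the 2 controls, with knock-down samples in red and controls in blue, filled circles for replicate 1 and open squares for replicate 2, grouped by role. Both red points lie left of both blue points in 20 genes and right of them in Utp14a and Pwp2.

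**Figure D2:**
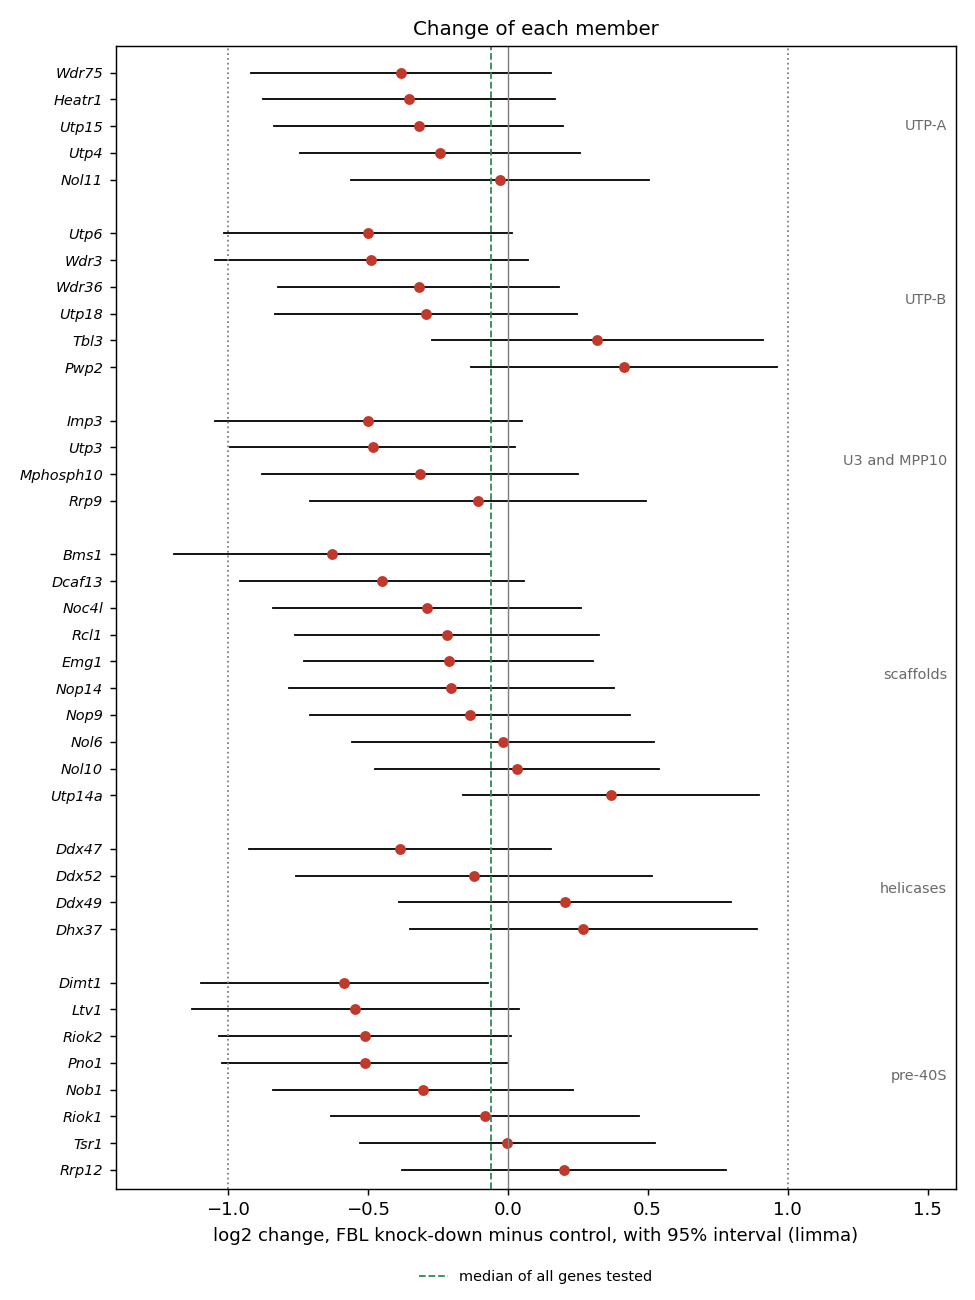
Log2 change of each gene (knock-down minus control, red points) with its 95% interval from limma (bars), the dotted lines marking a 2-fold change and the dashed green line the median of all genes tested (−0.06). The points run from −0.63 for Bms1 to 0.42 for Pwp2.

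The promoters of the genes at both ends of this range are shown because they let the letters of the most and least reduced genes be compared. They are the 150 bases before the start in RefSeq, assembly GRCm38.p6, written 5′ to 3′ on the strand of the gene. Of the 6 lowest genes, those of Bms1 (chr6:118419418-118419567, minus strand), Dimt1 (chr13:106946979-106947128, plus), Ltv1 (chr10:13193138-13193287, minus), Riok2 (chr17:17374182-17374331, plus) and Pno1 (chr11:17211590-17211739, minus) are printed. Utp6, the other of the 6 lowest, was not among the members with a promoter sequence and is not shown. The 2 highest genes follow, Utp14a (chrX:48256784-48256933, plus) and Pwp2 (chr10:78185150-78185299, minus). Capitals mark matches, on either strand, to any of 6 motifs. The E-box was searched as CACGTG, and the site of ETS factors was searched as CCGGAAG. The GC box of Sp1 was searched as GGGCGG, and the CCAAT box as these letters themselves. For part of the motif of NRF1 the letters were GCGCATG, and for the core of the motif of YY1 they were AAGATGG.
Bms1: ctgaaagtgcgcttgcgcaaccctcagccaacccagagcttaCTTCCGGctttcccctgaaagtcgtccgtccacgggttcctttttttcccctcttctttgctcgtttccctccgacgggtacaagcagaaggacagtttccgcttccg
Dimt1: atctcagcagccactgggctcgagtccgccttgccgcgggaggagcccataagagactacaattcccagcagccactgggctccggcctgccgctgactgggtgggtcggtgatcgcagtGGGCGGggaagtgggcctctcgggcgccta
Ltv1: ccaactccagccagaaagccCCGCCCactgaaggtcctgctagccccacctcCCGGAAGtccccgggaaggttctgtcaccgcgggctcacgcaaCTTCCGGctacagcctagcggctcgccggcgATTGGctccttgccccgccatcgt
Riok2: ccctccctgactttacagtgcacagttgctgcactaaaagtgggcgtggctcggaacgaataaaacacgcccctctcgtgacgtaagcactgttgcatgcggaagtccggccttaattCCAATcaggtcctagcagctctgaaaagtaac
Pno1: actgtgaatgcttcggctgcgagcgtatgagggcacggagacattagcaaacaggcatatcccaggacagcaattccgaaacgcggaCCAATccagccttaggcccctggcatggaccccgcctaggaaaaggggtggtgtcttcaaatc
Utp14a: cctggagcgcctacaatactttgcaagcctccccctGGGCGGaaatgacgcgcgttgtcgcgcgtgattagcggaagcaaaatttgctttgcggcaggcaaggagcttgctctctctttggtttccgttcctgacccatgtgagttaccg
Pwp2: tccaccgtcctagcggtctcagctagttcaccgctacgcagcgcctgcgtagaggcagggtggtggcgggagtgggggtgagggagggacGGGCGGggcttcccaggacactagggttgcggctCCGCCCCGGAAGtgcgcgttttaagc

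The ETS letters stand in Bms1 and, on both strands, in Ltv1, and also in Pwp2, where they share 1 base with a GC box. They therefore occur at both ends of the range of change. Over the 250 bases before the start, 13 of the 35 members with a promoter in the table (37.1%) held the ETS letters, against 12.8% of the 10276 promoters of genes tested and 7.05% of all 27018 promoters. The members with a match and a tested probe numbered 12, of which 8 were lower, with a median change of −0.27. Of the 19 without a match 18 were lower, with a median of −0.29. The difference between these 2 sets was not tested. CCAAT stood in 18 of 35 (51.4%), against 36.4% of the promoters of genes tested. The GC box stood in 20 of 35 (57.1%), against 57.1% of the promoters of genes tested, and the E-box in 3 of 35 (8.57%), against 8.30%. The NRF1 letters occurred in 3 of the 35 and the YY1 letters in 2. The ETS letters were also held by 10 of 33 promoters of 60S assembly factors (30.3%), 7 of 22 of other small subunit biogenesis genes (31.8%) and 10 of 25 of 40S ribosomal proteins (40%). A match describes the letters alone.

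Many of these genes start back to back with a neighbour on the other strand. In RefSeq, 17 of the 35 (48.6%) had such a start within 1000 bases upstream, against 18.2% of the genes tested. Nop9 and Dhrs1 were 9 bases apart, Utp4 and Chtf8 47, Wdr3 and Gdap2 56, Noc4l and the helicase gene Ddx51 69, and Utp15 and Ankra2 84. In 11 pairs both genes were tested. The member was lower in knock-down cells in 10 of the 11, with a median change of −0.29, and the neighbour in 4 of the 11, with a median of 0.04. None of these neighbours rose or fell in limma, the lowest adjusted p being 0.154. For Utp15 the change was −0.32 and for Ankra2 0.30, whereas for Wdr3 it was −0.49 and for Gdap2 −0.26.

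The UTP-A subcomplex binds the start of the precursor first and has been linked in human cells to transcription by RNA polymerase I. All 5 of its tested genes had changes below 0, with a median of −0.32, which was −0.18 against control 1 alone and −0.45 against control 2 alone. Wdr75, a WD-repeat subunit, had levels of 3.64 and 3.71 in knock-down cells and 3.85 and 4.25 in controls, a change of −0.38 ± 0.24. Heatr1, the large HEAT-repeat subunit, had 3.87 and 3.85 in knock-down cells and 4.06 and 4.37 in controls, a change of −0.35 ± 0.23. The groups did not overlap in either gene, although control 1 lay nearer to the knock-down pair than control 2 did. The other probes of Heatr1 gave changes of −0.49 and −0.37, all with the same sign. Utp15 (−0.32 ± 0.23) and Utp4 (−0.24 ± 0.23), which encodes cirhin, likewise had both knock-down values below both controls. Nol11, a vertebrate subunit, had a change of −0.03 ± 0.24 and its knock-down values of −0.13 and −0.10 lay between the controls at −0.28 and 0.11.

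UTP-B, a complex of WD-repeat proteins and UTP6 that joins after UTP-A, was divided. Utp6 had levels of 1.77 and 1.63 in knock-down cells, against 2.10 and 2.31 in controls, a change of −0.50 ± 0.23 (limma adjusted p = 0.264). Wdr3 (−0.49 ± 0.25), Wdr36 (−0.32 ± 0.23) and Utp18 (−0.29 ± 0.24) were lower too, with groups that did not overlap. In Utp18 the gap was slight, with knock-down values of 1.82 and 1.6 and controls of 1.82 and 2.18. A dimmer probe of Utp18, well above background on 3 arrays, went the other way at 0.86 ± 0.35, so its probes disagreed. Pwp2, the UTP1 protein of yeast, had levels above both controls in both knock-down samples, at 5.28 and 5.35 against 5.12 and 4.67 in controls. Its change was 0.42 ± 0.25 (adjusted p = 0.395), and 0.38 at its other probe. Tbl3 had 3.0 and 3.23 in knock-down cells and 3.1 and 2.49 in controls, with overlapping groups and a change of 0.32 ± 0.27. The median of the 6 genes was −0.30, or −0.18 against control 1 alone and −0.42 against control 2 alone.

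Of the proteins closest to U3, Imp3, which helps U3 pair with the precursor, had levels of 4.66 and 4.72 in knock-down cells, against 5.42 and 4.96 in controls. Its change was −0.50 ± 0.25 (limma adjusted p = 0.30). Utp3, or SAS10, a partner of MPP10, had 5.46 and 5.33 in knock-down cells and 5.80 and 5.96 in controls, with changes of −0.48 ± 0.23 and, at its other probe, −0.39. Both genes had knock-down values below both controls. Mphosph10, which encodes MPP10 itself, had 1.57 and 1.74 in knock-down cells and 1.71 and 2.22 in controls. Its groups overlapped, and its 3 probes gave changes of −0.31, −0.01 and 0.11. Rrp9, the protein specific to the U3 particle, lay at 4.46 and 4.50 in knock-down cells, between the controls at 4.93 and 4.25 (change −0.11 ± 0.27). Imp4, the other partner of MPP10, was read at −8.37 and −7.82 in knock-down cells and −7.80 and −7.35 in controls, all not well above background, so no change is given.

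Among the scaffolds and domain assembly factors 8 of 10 tested genes were lower, with a median of −0.21. Against control 1 alone 8 were lower, with a median of −0.35, and against control 2 alone 5 were lower, with a median of −0.02. Bms1, a GTPase, had levels of 0.99 and 1.18 in knock-down cells, against 1.46 and 1.97 in controls. Its change was −0.63 ± 0.25 (unadjusted p = 0.0328, limma adjusted p = 0.198), with −0.62 at its other probe. Both probes thus gave nearly the same change. Rcl1, the binding partner of BMS1, had a change of −0.22 ± 0.24, and its knock-down values of 3.99 and 3.99 stood beside controls of 4.43 and 3.98. Dcaf13 (−0.45 ± 0.23), the SOF1 protein of yeast, and Noc4l (−0.29 ± 0.25) and Emg1 (−0.21 ± 0.23) had groups that did not overlap. Emg1 is a methyltransferase that modifies a pseudouridine of the small subunit RNA. Nop14, which in yeast binds both the Noc4 and Emg1 proteins, had 2.27 and 2.47 in knock-down cells and 2.29 and 2.86 in controls. Its change was −0.20 ± 0.26, with 0.18 at its other probe. Nol6 had 4.25 and 4.23 in knock-down cells and 4.47 and 4.05 in controls, with changes of −0.02 and 0.09 at its probes. Nop9 (−0.13 ± 0.26) and Nol10 (0.03 ± 0.23) overlapped as well. Utp14a, which in yeast activates the helicase Dhr1, had −0.05 and 0.03 in knock-down cells, above the controls at −0.56 and −0.21. Its change was 0.37 ± 0.24 (adjusted p = 0.440), and 0.40 at its other probe.

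The RNA helicases, which unwind duplexes of the precursor and of U3, had changes of both signs. Ddx47 (−0.39 ± 0.24) had knock-down values below both controls. Ddx52 (−0.12 ± 0.29) and Ddx49 (0.20 ± 0.27) overlapped. Dhx37, the mammalian Dhr1, which releases U3, had −0.41 and −0.58 in knock-down cells and −0.41 and −1.13 in controls, a change of 0.27 ± 0.28. Here control 1 lay at the level of the first knock-down sample, and control 2 lay well below the other samples. The median of the 4 tested helicases was 0.04, but −0.11 against control 1 alone and 0.18 against control 2 alone, so its sign turned with the control array.

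The factors of pre-40S export and final maturation held 4 of the 6 lowest genes, and 7 of 8 were below 0, with a median of −0.41. Dimt1, which dimethylates adjacent adenosines near the end of the small subunit RNA, had 3.44 and 3.21 in knock-down cells, against 3.90 and 3.91 in controls. Its change was −0.58 ± 0.23 (unadjusted p = 0.0292, limma adjusted p = 0.186), and −0.30 at its other probe. At the brighter probe the controls differed by only 0.01, so the distance between the groups was larger than the spread within either of them. At the other probe the controls, at −2.98 and −2.61, lay further apart than the group means did. The knock-down values there were −3.03 and −3.16. Ltv1, an assembly and export factor, had −1.59 and −1.58 in knock-down cells and −1.35 and −0.73 in controls, a change of −0.54 ± 0.26. The knock-down pair was tight there, and the controls were not. Riok2, an atypical kinase of late 40S particles, had 2.80 and 2.72 in knock-down cells and 3.12 and 3.42 in controls, a change of −0.51 ± 0.23. Pno1, which binds the final cleavage site, had 5.29 and 5.15 in knock-down cells and 5.65 and 5.81 in controls, a change of −0.51 ± 0.23. In both genes each knock-down value lay below each control. Nob1, the endonuclease that PNO1 accompanies, had a change of −0.30 ± 0.24. Riok1, another atypical kinase of late 40S particles, had 2.09 and 2.16 in knock-down cells and 1.98 and 2.44 in controls. Its 3 probes gave −0.08, −0.15 and 0.14. Tsr1, a GTPase-like protein, had a change of −0.001 ± 0.24 and Rrp12, an export factor, one of 0.20 ± 0.26.

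Of the 15 genes with more than 1 tested probe, 10 had changes of 1 sign at all probes. The 5 with a probe of the opposite sign were Mphosph10, Utp18, Nop14, Riok1 and Nol6. The other 22 rested on a single probe.

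The spread within the groups was unequal. The knock-down samples differed from each other by at most 0.24 on the log2 scale in any of the 37 genes, with a median size of 0.08. The controls differed by up to 0.78, in Ddx52, with a median size of 0.41. The difference between controls was the larger in 34 of 37 genes (91.9%), against 78.1% of all genes tested. It was also the larger in 82.1% of other small subunit biogenesis genes, 92.1% of 60S assembly factors and 100% of 40S ribosomal proteins. Among the members the difference between controls ran in both directions. Control 2 was higher than control 1 in 22 of the 37 genes, such as Ddx52, Ltv1 and Nop14, and lower in 15, such as Dhx37, Rrp9, Ddx49, Tbl3 and Rrp12. Among all genes tested, control 2 was higher in 37.4%. The knock-down mean was below control 1 in 29 of 37 genes (median −0.24) and below control 2 in 26 (median −0.26). Over all 19338 genes tested it was below control 1 in 11930 (median −0.13) and below control 2 in 9617 (median 0.0045). The members thus lay further from all genes against control 2 than against control 1.

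**Figure D3:**
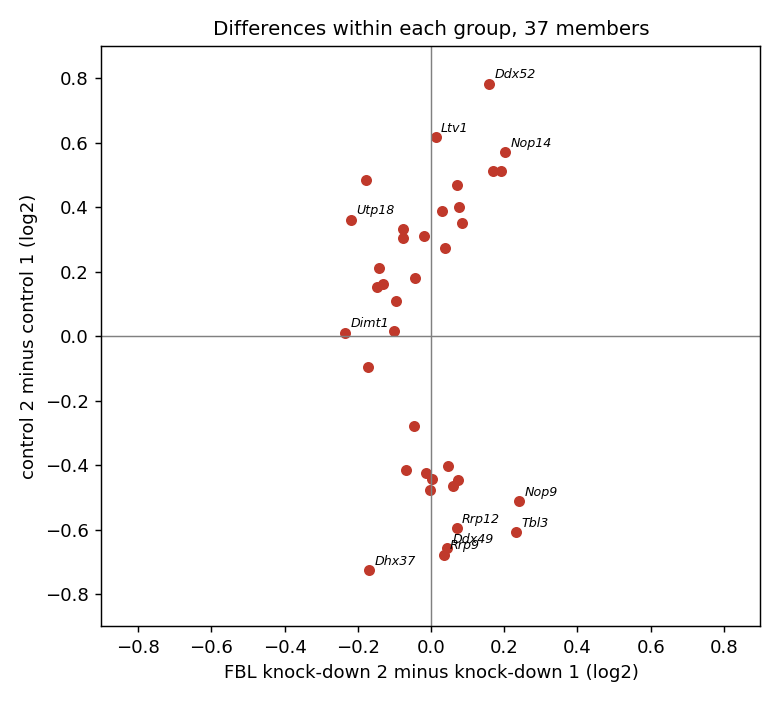
Knock-down 2 minus knock-down 1 (horizontal) against control 2 minus control 1 (vertical), both in log2 units on the same scale, with 1 point per gene for 37 genes and names where a difference was large. The points spread from −0.73 to 0.78 vertically and stay within 0.24 of 0 horizontally.

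Which single genes passed varied with the control array. Without control 1, limma called 5 of the 37 lower (Bms1, Ltv1, Riok2, Wdr3 and Wdr75, adjusted p = 0.0261 to 0.0485) and 2 higher (Dhx37, adjusted p = 0.04995, and Pwp2, adjusted p = 0.0417). Of all genes, 8.94% fell and 12.2% rose in that fit. Without control 2 it called 1 lower, Imp3 (adjusted p = 0.0410), where 6.77% of all genes fell. With a lone control, the spread in those fits comes only from the 2 knock-down arrays, and the control is assumed to vary like them. The change of Dhx37 was 0.63 without control 1 and −0.09 without control 2. Knock-down 2 was on another slide than the other 3 arrays. Within the first slide the median of the 37 genes was −0.27, with 29 of them below 0, none called by limma and 0 at an unadjusted p under 0.05. Of all genes, 2.97% were called in that fit and 8.0% stood at an unadjusted p under 0.05. It holds 1 knock-down array, takes its spread from the 2 controls and gives all genes the same variance.

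Related gene groups gave a frame for these values. Over all genes tested, 6.51% rose or fell, 20.0% stood at an unadjusted p under 0.05 and 56.1% were below 0. Of 28 other small subunit biogenesis genes tested, 1 fell, Fbl, and none rose, and 24 were below 0, with a median of −0.27. Apart from Fbl, Fcf1, the nuclease that makes early cuts in the precursor, was the lowest (−0.54 ± 0.23) and Rrp36 the highest (0.34 ± 0.26). Of the 38 tested 60S assembly factors none passed in limma, with 2 at an unadjusted p under 0.05, and 31 were below 0, with a median of −0.19 (−0.23 without control 2 and −0.12 without control 1). Nifk was their lowest (−0.60 ± 0.23) and Bop1 their highest (0.14 ± 0.26). None of 33 genes for 40S ribosomal proteins passed in limma either, with 0 at an unadjusted p under 0.05. Their median was 0.08, with 12 below 0, Rps3a1 the lowest (−0.29 ± 0.24) and Rps16 the highest (0.25 ± 0.25). That median was 0.31 without control 1 and −0.16 without control 2, so its sign rested on the control array. Below 0 were 81.1% of the members, 85.7% of the other small subunit genes and 81.6% of the 60S assembly factors. Of the genes for 40S ribosomal proteins 36.4% were. The difference between these groups was not tested.

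**Figure D4:**
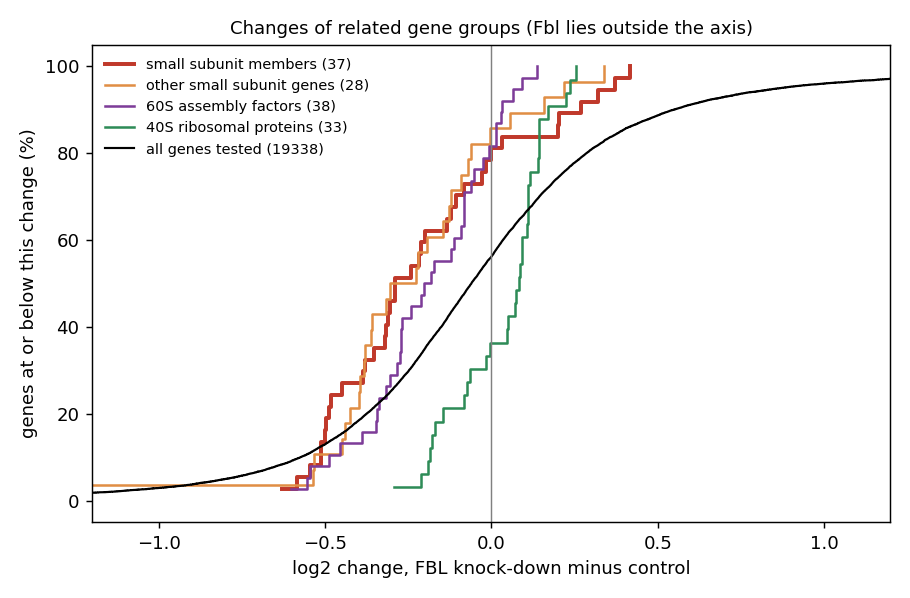
Cumulative share of genes (vertical, percent) at or below each log2 change (horizontal, knock-down minus control) for the 37 tested members, the 28 other small subunit genes, the 38 60S assembly factors, the 33 40S ribosomal protein genes and all 19338 genes tested. The curve of the members crosses its middle at −0.29 and that of the 40S ribosomal proteins at 0.08.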

How the data were processed

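Messenger RNA of 2 FBL knock-down and 2 control samples was measured on single-colour Agilent arrays, grouped by the sample titles. Each deposited spot intensity is background-subtracted and spatially detrended by Agilent Feature Extraction 10.7.3.1, per the file headers, without scaling across arrays. Log2 values are held in the deposited value table. For 99.8% of probes per array these lay within 0.01 of log2 processed signals shifted by a single constant. Column medians were −3.94 and −3.91 for the knock-down samples and −3.85 and −3.98 for the controls, and 75th percentiles were within 0.01 of 0. The software behind them is not given here. For the members the table differed from the values used by at most 0.01.

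Control spots and flagged spots (96 to 138 per array) were left out, spots of a probe were averaged, and the 75th percentile of each array was subtracted. It stood at 633 and 501 in the knock-down samples and 557 and 800 in the controls. Of 41174 probes, 24497 to 26404 per array were well above background, which, with the number of arrays, limits the precision. No spot was saturated. Probes well above background on both arrays of either group were tested, and the brightest probe by mean level stood for its gene. Names came from the RefSeq table of GRCm38.p6, which named 24375 probes.

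Groups were compared with limma 3.58.1 in R 4.3.3 (lmFit and eBayes, two-sided). Simulated data used to check the code followed limma's own variance model with equal spread in both groups, unlike the arrays here. The 41 members and all lists were chosen with earlier results of these data known, so no list was tested. Values in every sample are given for Fbl, the 6 lowest and 4 highest members, members with a probe of opposite sign and Imp4, and for others added after their values were seen. In the other lists, genes that passed and the lowest and highest are named. Alternatives were normexp (on the median signal, as the files hold no mean signal), other scalings, the value table, other filters, the mean over probes, a trend, slide and replicate blocks, and leaving out each array. Same-numbered samples did not deviate together (r = 0.003 across genes). That correlation rests on a single difference within each group, so it cannot show whether same-numbered samples shared a culture or batch.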

Additional observations from a re-analysis of the deposited data

How the results depend on the processing

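In all 14 alternatives the median change of the members stayed below 0, at −0.23 with quantile normalization, −0.21 with the mean over probes and −0.29 in the original fit, and no member passed in limma outside the fits that leave out a control. Not all of these were separate checks. The trend and the replicate block cannot alter a change itself, in the median or in a single gene. The filter for all 4 arrays removed no tested member. With each of them the median was again −0.29. Leaving out 1 array gave 0 to 2 members that rose and 0 to 5 that fell, and over all genes 381 to 2350 that rose and 194 to 1728 that fell. Over all genes 752 rose and 506 fell in the original fit. The falling count was 337 with quantile normalization, 834 with the trend and 787 with the replicate block, and 381 rose and 194 fell with the slide as a block, which equals leaving out knock-down 2. With no filter on dim probes 0 genes rose and 0 fell in limma (2959 at an unadjusted p under 0.05), Fbl included (adjusted p = 0.106). The replicate block changed no call of a member. The fits under normexp, with either block and without either knock-down array had an infinite prior, so each gave all genes 1 variance. Of 532 single-gene repeats, 499 kept their direction and side of the threshold. Signs turned in 14 members. With the mean over probes Utp18 was 0.29 and Nol6 0.036. With quantile normalization Nol6 was 0.047 and Tsr1 0.049. With the percentile over bright probes Nol11 was 0.027, Nol6 0.039 and Tsr1 0.054. Tsr1 was 0.0028 in the value table and 0.038 with the slide as a block. Leaving out 1 array gave ranges of −0.44 to 0.0041 for Rcl1, −0.49 to 0.085 for Nop14, −0.39 to 0.12 for Nop9, −0.51 to 0.27 for Ddx52, −0.45 to 0.23 for Rrp9, −0.32 to 0.15 for Riok1, −0.22 to 0.17 for Nol11, −0.23 to 0.20 for Nol6, −0.17 to 0.17 for Tsr1, −0.053 to 0.12 for Nol10, −0.10 to 0.50 for Rrp12, −0.12 to 0.53 for Ddx49 and −0.093 to 0.63 for Dhx37. The cause of these shifts was not tested.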
